A study of Mus musculus with 12 samples.

Results

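The Hippo pathway and its YAP partners were followed through 9 genes, out of 18193 measured, in medulloblastoma (MB) and normal cerebellum of mice. The genes were the coactivators Yap1 and Wwtr1 (which encodes TAZ), the DNA-binding factors Tead1, Tead2, Tead3 and Tead4, the kinases Lats1 and Lats2, and the TEAD cofactor Vgll4. They were chosen by name. A gene level averages, on the log2 scale, the probe sets that map to 1 gene and lack the suffixes s and x, which mark probes that may cross-hybridise. A step of 1 on this scale is a doubling of signal.

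Expression arrays were available for 8 MBs, for 2 samples of cerebellar granule progenitor cells (CGNP) and for 2 samples of whole cerebellum (WC). Each sample is named by the number in its label. According to the study, the MBs arose in Nestin-Cre p53-/- mice with a conditional Xrcc4 allele over either a null allele (c/-) or a second conditional allele (c/c), so that the p53 loss was shared by all tumors. Nestin-Cre removes Xrcc4, a factor of non-homologous end joining, in neural progenitors and their progeny, while other cells of the host keep the conditional allele. MB_706 and MB_1206 were c/c and the other 6 were c/-. The study calls the CGNP and WC samples age-matched and of the same genotype, but neither their alleles nor the ages are given in the labels, so shared or missing alleles in the normal samples cannot be read from them. The labels describe the MBs as tumor tissue, whereas the methods name 6 of these 8 tumors among MB cells taken into culture. Whether the CGNP samples were sorted, cultured or pooled from several animals was not given in the sources used here.

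The Hippo pathway is a kinase cascade that restrains growth. MST kinases with SAV1 activate LATS kinases with MOB1, and LATS kinases phosphorylate YAP and TAZ, which are then held in the cytoplasm or degraded. Unphosphorylated YAP and TAZ enter the nucleus and drive transcription through TEAD factors, and VGLL4 competes with them for TEAD. YAP is known in the cerebellum as a partner of Sonic hedgehog signaling in proliferating granule progenitors, and it is regulated mostly at the protein level, which RNA arrays do not read. In tissue RNA, fewer cells of a type and less RNA per cell cannot be told apart.

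TEAD factors bind the DNA word GGAATG, read as CATTCC on the other strand. The RefSeq promoter table of GRCm38.p6, which runs from 250 bases before to 50 bases after each start, held 11 promoters of 7 of the 9 genes, with no entry for Tead1 and Tead4. The word was present on either strand in 7 of these 11 promoters, from 5 genes (Yap1, Wwtr1, Tead3, Lats2 and Vgll4), and its letters were not in the windows of Tead2 and Lats1. The promoters of Wwtr1 overlap and hold the same word, so they are not separate finds, and in Lats2 the word lay after the start. Among all 32851 promoters of that table, 14.7% held it, and of the 18109 promoters of measured genes 13.2% did. The windows of 60 bases below show the word, in capitals, ahead of both coactivators, of 1 TEAD gene and of Ccn1, a much used YAP target, each 5′ to 3′ on the gene's own strand. A match in letters is a description and not a bound site.
Yap1, chr9:8004705-8004764, minus strand: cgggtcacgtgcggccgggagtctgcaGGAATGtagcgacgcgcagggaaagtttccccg
Wwtr1, chr3:57576014-57576073, minus strand: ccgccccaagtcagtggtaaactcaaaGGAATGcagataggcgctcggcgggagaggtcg
Tead3, chr17:28350955-28351014, minus strand: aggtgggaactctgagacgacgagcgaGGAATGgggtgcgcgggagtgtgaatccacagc
Ccn1, chr3:145650056-145650115, minus strand: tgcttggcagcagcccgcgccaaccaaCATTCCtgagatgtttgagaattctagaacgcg
The word began 141 bases before the start in Yap1, 136 in Wwtr1, 182 in Tead3 and 103 in Ccn1.

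The tissue labels were set against marker genes before the pathway was read. Atoh1, the factor that defines granule progenitors, had a mean log2 level of 11.95 in MB, 5.95 in CGNP and 2.76 in WC. Gabra6, a receptor of mature granule neurons, was at 13.08 in WC and at 4.41 and 3.91 in MB and CGNP. Gli1, a readout of hedgehog signaling in dividing progenitors, was at 9.10 in MB and close to the lowest value of the arrays in CGNP, at 2.30. Thus the CGNP samples were low in Gli1, and they also carried Gfap at 9.02, Gad1 at 10.12 and Col3a1 at 10.19. These are single genes of longer marker lists. The list of granule progenitor and granule neuron markers averaged 7.66 in CGNP, 8.72 in MB and 9.46 in WC. The glial list that holds Gfap averaged 8.10 in CGNP and 9.35 in WC, and the Purkinje list that holds Gad1 5.94 and 9.89. The list of pericyte, smooth muscle and meningeal fibroblast markers, with Col3a1, averaged 5.81 and 4.76. The microglial list of 10 markers averaged 6.50 to 7.81 in MB, 3.44 to 4.48 in CGNP and 5.17 to 5.40 in WC. The targeted gene, Xrcc4, had a mean of 2.93 in MB, 3.88 in CGNP and 4.29 in WC and was lower in MB than in either normal group (limma, adjusted p = 0.0249 and 0.00298), and the position of its probe sets against the deleted part is unknown here. Array medians over genes lay between 4.37 and 4.59, and the log2 gap between 3′ and 5′ probes of actin and Gapdh was 2.93 in MB_706, 0.56 to 0.82 in the other MBs, 0.15 to 0.23 in CGNP and 0.48 to 0.52 in WC.

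Tead2, Tead1 and Vgll4 were higher and Lats2 lower in MB than in CGNP. Against WC, the same 4 genes were called in the same directions and Lats1 was higher as well, while Yap1, Wwtr1, Tead3 and Tead4 passed neither test. Of the 9 genes, 3 were higher in MB than in CGNP, beside 18.7% of all genes tested, and 1 was lower, beside 18.6%. Against WC, 4 were higher, beside 22.2% of all genes, and 1 was lower, beside 21.8%. The median log2 difference of the 9 genes was 0.21 against CGNP and 0.13 against WC, and over all genes both medians were 0. In CGNP against WC, 5 of the 9 were higher, beside 14.9% of all genes, and 1 was lower, beside 13.6%, with a median of 0.58. The 3 comparisons share samples, so their values are given side by side. Where groups are described below as apart or without overlap, the share of all genes apart in that way was not counted.

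**Figure D1:**
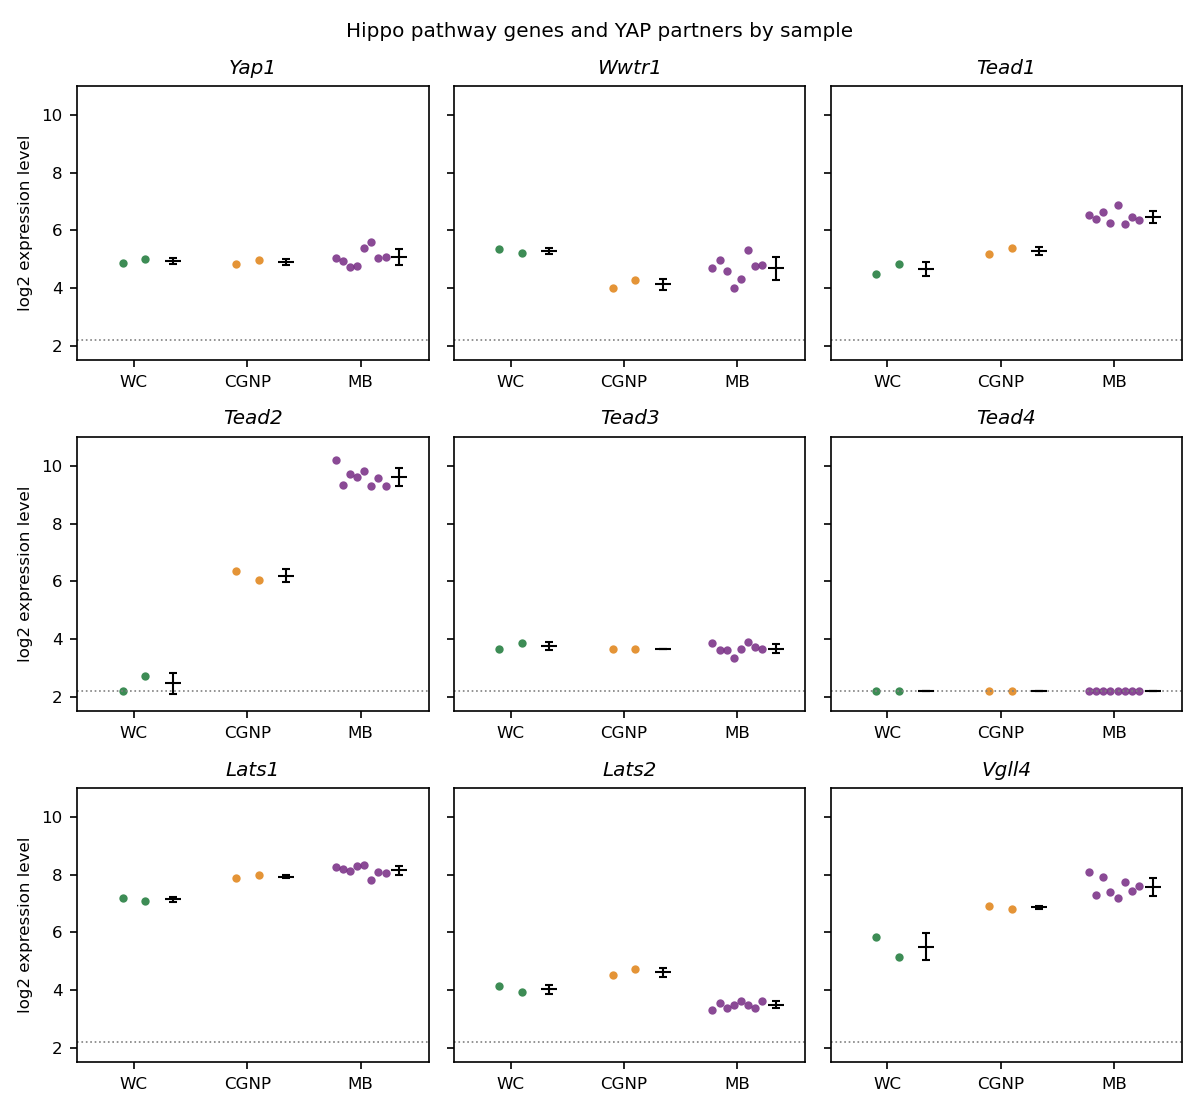
Log2 expression level (vertical axes) of each of the 9 genes in 2 WC, 2 CGNP and 8 MB samples. Points are samples, dashes with bars are mean ± SD, and the dotted line is the lowest value of the arrays, 2.20. All 8 MBs lie above all 4 normal samples for Tead1, Tead2 and Vgll4 and below them for Lats2. The share of all genes with groups apart in this way was not counted.

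Yap1, the coactivator for which the pathway is best known, was measured at 4.84 in CGNP_2698 and 4.99 in CGNP_2705, and at 4.87 in WC_2646 and 5.02 in WC_2647. In MB its lowest value was 4.75 in MB_1206, the median 5.05 and the highest 5.59 in MB_630. The groups overlapped, with MB_630 and MB_1224 (5.38) above every normal sample and MB_1206 and MB_1207 (4.77) below every normal sample. The MB mean of 5.08 ± 0.29 (SD, n = 8) differed from CGNP by 0.16 on the log2 scale, with a 95% interval from -0.28 to 0.61 (limma, adjusted p = 0.67), and from WC by 0.13 (-0.31 to 0.58, adjusted p = 0.752). The CGNP mean differed from that of WC by -0.03 (-0.59 to 0.53, adjusted p = 1).

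The Yap1 level averages 2 probe sets, and 1 of them stayed within 0.5 of the lowest value in all 12 samples, which pulls the mean down and shrinks every difference. On the other probe set alone, MB_630 was at 8.95 and MB_1224 at 8.42. The remaining 6 MBs spanned 7.30 to 7.93 and the 4 normal samples 7.46 to 7.82. On that probe set too the groups overlapped, and the difference of MB from CGNP was 0.45 (-0.39 to 1.29, limma, adjusted p = 0.445).

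Wwtr1, whose product TAZ acts alongside YAP, was measured at 3.99 and 4.27 in CGNP_2698 and CGNP_2705 and at 5.35 and 5.21 in WC_2646 and WC_2647. In MB the lowest value was 3.99 in MB_1207, the median 4.73 and the highest 5.32 in MB_630. The MBs spread over nearly the whole range between the normal groups, with MB_1207 at the level of the lower CGNP sample and MB_630 between the WC samples. Wwtr1 was lower in CGNP than in WC by 1.15 on the log2 scale (SE 0.355; limma, adjusted p = 0.0365). MB, at 4.68 ± 0.40 (SD, n = 8), passed the test against neither CGNP (0.55, 95% interval -0.08 to 1.18, adjusted p = 0.162) nor WC (-0.59, -1.22 to 0.04, adjusted p = 0.122).

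The Wwtr1 calls depended on single samples and on settings. With the arrays shifted to the same median, the difference of MB from WC was -0.63 (limma, adjusted p = 0.0483). Without MB_1207 the difference from CGNP was 0.65 (limma, adjusted p = 0.0463), and without MB_630 the difference from WC was -0.68 (adjusted p = 0.0443). The CGNP to WC call was lost when any 1 of the 4 normal samples, or MB_1187, MB_1206 or MB_794, was left out, with adjusted p values up to 0.167. It was also lost with the methods' t-test (adjusted p = 0.0806) and with a minimum log2 change of 0.5 (limma, 0.255). On the brightest of its 3 probe sets, 7 MBs were at 7.68 to 9.06, above CGNP at 7.17 and 7.18, and MB_1207 was below them at 6.94. There MB differed from CGNP by 1.065 (limma, adjusted p = 0.0976) and CGNP from WC by -1.75 (adjusted p = 0.0469). The dimmer probe sets lay between 2.33 and 3.88 in all samples, which shrinks the averaged differences.

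The same tumors stood at the ends of several marker lists. MB_630 had the highest mean among MBs for the endothelial list (4.97, other MBs 2.94 to 4.04), in which Pecam1, Cdh5, Flt1 and Kdr were close to the lowest value in MB. It was also highest for the list of pericyte, smooth muscle and meningeal fibroblast markers (6.32, other MBs 3.40 to 4.45), in which Acta2 was at the lowest value of the arrays in all 3 groups. The granule (9.41), oligodendrocyte (5.24) and Purkinje (6.07) lists too were highest among MBs in MB_630, and lowest in MB_1207 (7.90, 3.21 and 3.15). MB_1207, lowest in Wwtr1, had the lowest mean for Bergmann glia and astrocyte markers, 5.42 against 6.23 to 7.93 in the other MBs. For that glial list CGNP was at 8.05 and 8.15 and WC at 9.38 and 9.32. The part of these cell types in the coactivator values was not tested.

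Tead2, a TEAD factor of early neural progenitors, showed the widest gap of the 9 genes. It was measured at 2.20 in WC_2646 and 2.73 in WC_2647, and at 6.37 in CGNP_2698 and 6.03 in CGNP_2705. In MB it ran from 9.30 in MB_630 through a median of 9.60 to 10.20 in MB_1187. The 3 groups were fully apart, with WC lowest and MB highest. The MB mean of 9.61 ± 0.31 (SD, n = 8) was 3.41 above CGNP on the log2 scale, a 10.6-fold difference (SE 0.239; limma, adjusted p = 3.2e-06).

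Because WC_2646 lay at the lowest value of the arrays and the WC mean was 2.47, differences from WC are lower bounds for Tead2. MB was at least 141-fold higher than WC (limma, adjusted p = 8.1e-09), and CGNP at least 13.3-fold higher (adjusted p = 1.1e-05, and 0.0531 with the methods' t-test). Tead2 has 1 probe set in the rule used, so no second probe set was there to set beside it.

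Tead1, the most broadly expressed TEAD factor, was measured at 4.51 in WC_2646 and 4.84 in WC_2647, and at 5.19 in CGNP_2698 and 5.38 in CGNP_2705. In MB it ran from 6.23 in MB_630 through a median of 6.43 to 6.87 in MB_1224. Again WC was lowest and MB highest, with no overlap. The MB mean of 6.47 ± 0.21 (SD, n = 8) was above CGNP by 1.18 on the log2 scale (SE 0.161; limma, adjusted p = 2.5e-04) and above WC by 1.80 (adjusted p = 9.7e-06).

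The step between the normal groups was 0.61 (SE 0.204; limma, adjusted p = 0.0492), at the edge of the threshold, and it was lost under 14 of 22 alternatives. The size of the Tead1 differences depended on the probe sets. On the brighter of its 2 probe sets MB was 1.89 above CGNP and 3.15 above WC, and CGNP was 1.25 above WC (adjusted p = 6.6e-04), since the dimmer one lay between 2.24 and 3.35 in all samples and lowered the mean.

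Tead3 and Tead4 did not separate the groups. Tead3 was at 3.65 in both CGNP samples and at 3.65 and 3.87 in WC, and in MB it ran from 3.35 in MB_1207 through a median of 3.65 to 3.89 in MB_630. Its difference of MB from CGNP was 0.02 (95% interval -0.25 to 0.29; limma, adjusted p = 1), and from WC -0.08 (-0.35 to 0.18, adjusted p = 0.728). Tead4 was at 2.20 in the normal samples and at 2.20 to 2.21 in MB, the lowest value of the arrays, on both of its probe sets, so its level was not measurable here.

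**Figure D2:**
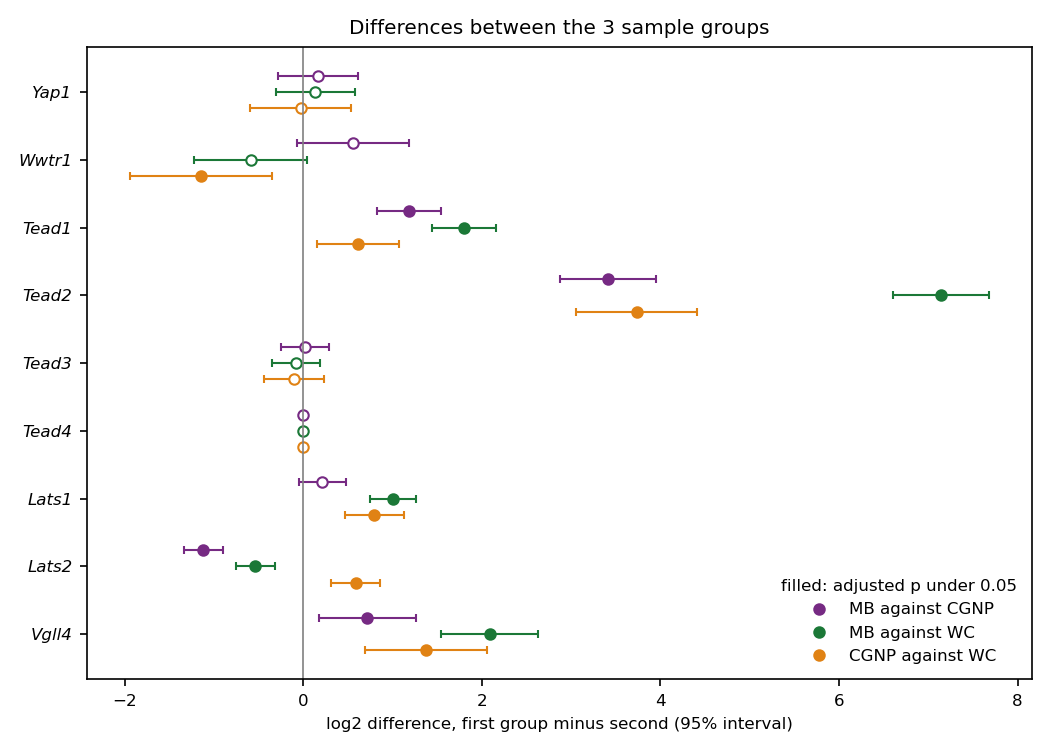
Log2 difference between groups (horizontal axis, first group minus second) with 95% intervals for each of the 9 genes in the 3 comparisons. Filled points passed limma's test at an adjusted p under 0.05; Tead2 reaches 7.14 in MB against WC, a lower bound, and Lats2 is the gene below 0 in both MB comparisons that passed.

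Lats1 and Lats2, the kinases that phosphorylate YAP and TAZ, went separate ways in MB. Lats2 was measured at 4.51 and 4.72 in CGNP_2698 and CGNP_2705, and at 4.14 and 3.92 in WC_2646 and WC_2647. In MB it ran from 3.33 in MB_1187 through a median of 3.48 to 3.64 in MB_794. All 8 MBs were below all normal samples, and CGNP was above WC without overlap. The MB mean of 3.49 ± 0.12 (SD, n = 8) was below CGNP by a log2 difference of -1.12 (SE 0.0973; limma, adjusted p = 1.3e-05) and below WC by -0.54 (adjusted p = 0.00115). CGNP was above WC by 0.58 (SE 0.123, adjusted p = 0.0054), a call lost with the 2 groups alone in the fit (0.0942), the methods' t-test (0.161) and a minimum log2 change of 0.5 (0.88).

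Lats2 is the gene with the most probe sets, 7 in all. Of these, 4 were averaged, 2 carried a suffix and 1 was shared with Xpo4. Among the averaged ones, 1 stayed within 0.5 of the lowest value in all samples and another was at 2.20 in MB and WC, which shrinks the averaged differences. The probe set shared with Xpo4 was highest in MB, at 5.12, beside 4.34 in CGNP and 4.84 in WC. The dimmer suffixed probe set was at 2.50 in MB, 2.49 in CGNP and 2.38 in WC. On its brightest probe set, which carries a suffix, Lats2 was at 8.72 and 8.62 in CGNP, at 8.24 and 8.15 in WC and at 6.37 to 7.62 in MB. There MB differed by -1.71 from CGNP (limma, adjusted p = 8.1e-04) and by -1.23 from WC (adjusted p = 0.00467), while CGNP and WC differed by 0.48 (adjusted p = 0.385). For the averaged level, the difference of -0.54 from WC missed the threshold when a minimum log2 change of 0.5 was asked for (limma, adjusted p = 0.853).

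Lats1 was measured at 7.90 and 7.97 in CGNP_2698 and CGNP_2705, and at 7.19 and 7.09 in WC_2646 and WC_2647. In MB it ran from 7.81 in MB_630 through a median of 8.16 to 8.33 in MB_1224. MB_630 was the 1 tumor below the CGNP samples, and all MBs were above WC. The MB mean of 8.15 ± 0.17 (SD, n = 8) was above WC by 1.0 on the log2 scale (SE 0.116; limma, adjusted p = 5.8e-05), and CGNP was above WC by 0.79 (SE 0.147, adjusted p = 0.00262), a call lost with the methods' t-test (adjusted p = 0.0517) and with a minimum log2 change of 0.5 (0.203). The difference of MB from CGNP was 0.21 (95% interval -0.05 to 0.47, adjusted p = 0.201), and 0.26 without MB_630 (adjusted p = 0.0241).

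Vgll4, which competes with YAP and TAZ for TEAD factors, was measured at 5.83 in WC_2646 and 5.17 in WC_2647, and at 6.91 in CGNP_2698 and 6.82 in CGNP_2705. In MB it ran from 7.20 in MB_1224 through a median of 7.53 to 8.07 in MB_1187. The groups did not overlap and had the same order as for Tead1 and Tead2. The MB mean of 7.58 ± 0.31 (SD, n = 8) was above WC by 2.09 on the log2 scale, 4.25-fold (SE 0.242; limma, adjusted p = 5.8e-05), and CGNP was above WC by 1.37 (SE 0.306, adjusted p = 0.00742). This step between the normal groups was lost under 4 alternatives: the methods' t-test (adjusted p = 0.153), the 2 groups alone in the fit (0.0876), a minimum log2 change of 0.5 (0.0632) and leaving out WC_2647 (1.04, 0.0622).

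The difference of Vgll4 between MB and CGNP was 0.72 (SE 0.242; limma, adjusted p = 0.0415), close to the threshold. It was lost under 10 of 23 alternatives, among them leaving out either CGNP sample (adjusted p = 0.145 without CGNP_2698 and 0.207 without CGNP_2705) or MB_1206, MB_630, MB_706 or MB_794 (0.0513 to 0.0635). In each of these the MB mean stayed higher.

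**Figure D3:**
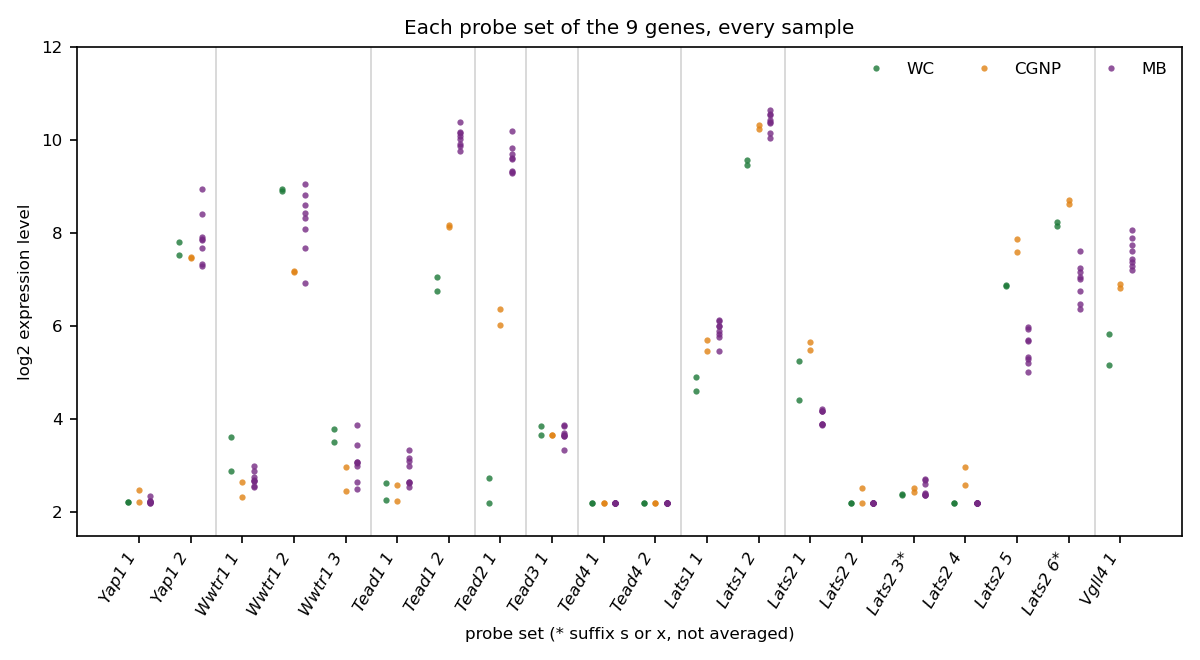
Log2 expression level (vertical axis) of each single-gene probe set of the 9 genes (horizontal axis, numbered within a gene), with 1 point per WC, CGNP or MB sample. Probe sets of 1 gene sit at very different levels, and 4 of the 18 averaged ones stay within 0.5 of the lowest value of the arrays in every sample.

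When CGNP and WC were pooled into 1 normal group of 4, the differences of MB were 5.28 for Tead2, 1.49 for Tead1, 1.40 for Vgll4, 0.61 for Lats1 and -0.83 for Lats2, all past limma's test. In this pooled comparison Wwtr1 differed by -0.02. Levels on the brightest probe set of each gene gave the same calls as the averaged levels in both MB comparisons.

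The genes around these 9 were taken from lists written from textbook knowledge. Of the 39 kinases, scaffolds and adaptors of the Hippo cascade, 36 were measured. In MB against CGNP 7 were higher, 11 lower and 18 did not pass (median log2 difference -0.07), and against WC 16 were higher, 8 lower and 12 did not pass (0.18). In CGNP against WC 11 were higher, 2 lower and 23 did not pass (0.25). These medians stand beside 0 over all genes. The share of the cascade list was 19.4% higher and 30.6% lower in MB against CGNP, beside 18.7% and 18.6% of all genes, and 44.4% and 22.2% against WC, beside 22.2% and 21.8%. In CGNP against WC it was 30.6% higher and 5.56% lower, beside 14.9% and 13.6%. Stk3, Dchs2 and Crb2 were not analysed here.

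Among the upstream kinases, Stk4 (MST1), which activates LATS, was higher in MB, at 6.49, than in CGNP (6.04; limma, adjusted p = 0.0202) and WC (5.64, adjusted p = 3.7e-04). Map4k4, a kinase that can phosphorylate LATS in parallel to MST, was at 6.81 in MB, 5.45 in CGNP and 5.08 in WC (adjusted p = 2.7e-05 against CGNP). Sav1, the MST scaffold, was at 7.66 in MB and 7.62 in CGNP and was higher in both than in WC, at 6.48. The LATS cofactors differed from each other: Mob1b fell from 6.57 in CGNP to 5.75 in MB (adjusted p = 2.4e-05), whereas Mob1a was at 7.48 in MB and 6.33 in CGNP (adjusted p = 0.0846). For Mob1a 7 MBs were at 7.42 to 8.12 and MB_706, the array with the wide gap between 3′ and 5′ probes, was at 5.91, below both CGNP samples. On its brightest probe set Mob1a was 1.96 higher in MB than in CGNP with no overlap (adjusted p = 3.3e-05). MB_706 was also the lowest MB for Sav1 (7.01) and, of genes described below, for Nf2 (4.62), Ppp2r1a (8.92), Strn3 (9.20) and Fgfr1op2 (7.96). It was the highest MB for Wbp2 (8.42), and for Stk4 and Map4k4 it was within the range of the other MBs. The part of the wide 3′ to 5′ gap in these values was not tested.

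The scaffold Nf2 (Merlin), which recruits LATS to the membrane, was lower in MB, at 5.07, than in CGNP, at 5.86 (limma, adjusted p = 0.00219), and higher than in WC, at 4.59 (adjusted p = 0.0245). On its brightest probe set these log2 differences were -0.27 and 1.18, both past the test. Limd1, an adaptor that binds and restrains LATS, was at 8.16 in MB, 4.98 in CGNP and 4.43 in WC, a log2 difference of 3.18 from CGNP (adjusted p = 1.4e-06). Its relatives differed less from CGNP: Wtip was at 7.86 in MB and 7.05 in CGNP, and Ajuba at 5.44 and 5.22, neither past the test, and both were higher in MB and in CGNP than in WC. Pard3, a polarity protein, rose from 3.16 in CGNP to 5.68 in MB (adjusted p = 1.3e-04), and Wwc2, a relative of KIBRA, from 3.67 to 4.43 (adjusted p = 0.00177). On their brightest probe sets the differences from CGNP were 3.85 for Pard3 and 1.51 for Wwc2, and Wwc2 was there also higher in MB than in WC (1.08, adjusted p = 0.0244).

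Of the giant cadherins of the pathway, Fat1 and Fat2 were lower in MB than in either normal group. Fat2, a cadherin of granule neurons, was at 6.22 in MB, 10.44 in CGNP and 11.06 in WC (limma, adjusted p = 0.00358 against CGNP), and among the MBs it ran from 3.92 in MB_1207 to 7.97 in MB_630. Fat4 was at 3.43 in MB, 7.05 in CGNP and 3.58 in WC, so it fell against CGNP (adjusted p = 9.6e-06) and not against WC. Fat1 was at 9.75 in MB, 10.56 in CGNP and 11.39 in WC (adjusted p = 0.0258 against CGNP). Dchs1, the ligand of Fat4, was at 5.87 in MB and 6.14 in CGNP and higher in both than in WC, at 2.80. Frmd6, a FERM protein upstream of MST, was lower in MB, at 6.12, than in CGNP (7.67) and WC (7.71), and Fjx1, a kinase of the Fat cadherins, was at 5.11 in WC, 4.32 in CGNP and 3.62 in MB. On the brightest probe set of Fjx1 the groups MB and CGNP overlapped (-0.13; limma, adjusted p = 0.739), and both were lower than WC.

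The STRIPAK complex, a PP2A phosphatase assembly that switches MST kinases off, had 15 of 16 genes measured. In MB against CGNP 2 were higher, 6 lower and 7 did not pass (median -0.20), and against WC 4 were higher, 4 lower and 7 did not pass (-0.12). In CGNP against WC 5 were higher and 1 lower (0.01). The shares in MB against CGNP were 13.3% higher and 40.0% lower, beside 18.7% and 18.6% of all genes. Against WC they were 26.7% each way, beside 22.2% and 21.8%. For CGNP against WC they were 33.3% and 6.67%, beside 14.9% and 13.6%. Strip2, a scaffold of the complex, was at 9.18 in WC, 5.96 in CGNP and 2.62 in MB, close to the lowest value of the arrays, with CGNP_2698 at 7.05 and CGNP_2705 at 4.86 (limma, adjusted p = 0.00421 for MB against CGNP). MB_630 was the exception among the tumors, at 4.76, and the other 7 MBs were at 2.20 to 2.51. The PP2A scaffold subunit Ppp2r1a fell from 10.78 in CGNP to 9.48 in MB (limma, adjusted p = 0.00103), a log2 difference of -1.30 that was -0.49 on its brightest probe set.

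Among its kinases, Stk24 was higher in MB, at 9.16, than in CGNP, at 8.49 (limma, adjusted p = 0.00126), but on its brightest probe set the difference was 0.13, with overlap (adjusted p = 0.583). Stk26 was close to the lowest value of the arrays in MB and WC, at 2.36 and 2.24, and at 3.53 in CGNP. Fgfr1op2 was higher in MB, at 8.58, than in CGNP, at 7.45 (adjusted p = 0.00337). Against WC, at 7.94, the groups overlapped (adjusted p = 0.0486) and the call was lost on its brightest probe set (0.36, adjusted p = 0.138). Sike1 was highest in CGNP, at 6.50, beside 5.96 in MB and 5.41 in WC, with the step from WC to MB lost on its brightest probe set (adjusted p = 0.101). Cttnbp2nl was at 4.70 in MB, 4.86 in CGNP and 2.89 in WC, and Strn3, a striatin, was lower in MB, at 9.71, than in WC, at 10.39 (adjusted p = 0.0244). On the brightest probe set of Strn3 that difference was -0.14, with overlap (adjusted p = 0.543), and MB was instead 0.83 higher than CGNP (adjusted p = 0.00127).

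Of 15 other cofactors that bind TEAD, YAP or TAZ, 12 were measured, and by limma 4 were higher in MB than in CGNP, 0 lower (1 at an unadjusted p under 0.05) and 8 not past the test (median 0.01). Against WC 3 were higher, 1 lower and 8 did not pass (0.01), and in CGNP against WC 1 was higher, 2 were lower and 9 did not pass (0.00). The shares in MB against CGNP were 33.3% higher and 0% lower, beside 18.7% and 18.6% of all genes. Against WC they were 25.0% and 8.33%, beside 22.2% and 21.8%. For CGNP against WC they were 8.33% and 16.7%, beside 14.9% and 13.6%. Smad3, a TGF-beta effector that can join TEAD complexes, was at 5.62 in MB and 5.69 in WC and lower in CGNP, at 4.67 (limma, adjusted p = 0.00713 for MB against CGNP), and its difference of 0.96 was 1.91 on the brightest probe set. The YAP-binding ankyrin proteins differed by small steps, Ankhd1 at 7.71 in MB and 7.29 in CGNP and Ankrd17 at 6.56 and 6.36, and on its brightest probe set the step of Ankhd1 from CGNP was 0.89. Arid1a, a chromatin remodeling subunit that can hold YAP back, was at 8.94 in MB, 8.59 in CGNP and 8.17 in WC. Wbp2, a WW-domain binding coactivator of YAP, was lower in MB, at 7.69, than in WC, at 9.25 (adjusted p = 1.9e-04).

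Transcriptional targets of YAP, TAZ and TEAD were called in both directions in every comparison. Of 30 listed genes 29 were measured, among them Lats2 and Tead1, and Fjx1, Amotl2, Ajuba, Ptpn14 and Wwc1 were also in the cascade list. In MB against CGNP 7 were higher, 7 lower and 15 did not pass (median 0.05), against WC 8 were higher, 6 lower and 15 did not pass (0.09), and in CGNP against WC 7 were higher, 6 lower and 16 did not pass (0.03). In MB against CGNP this was 24.1% each way, beside 18.7% and 18.6% of all genes, and against WC 27.6% higher and 20.7% lower, beside 22.2% and 21.8%. In CGNP against WC the shares were 24.1% higher and 20.7% lower, beside 14.9% and 13.6%. Areg was not analysed here.

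The targets used most often as readouts of YAP were close to the lowest value of the arrays or uneven in MB. Ccn1 (Cyr61), whose promoter window is printed above, was at 3.30 in both CGNP samples, at 2.21 and 2.22 in WC and at 2.20 to 2.22 in 6 MBs, with 2.76 in MB_630 and 3.31 in MB_1224. It was thus close to the lowest value of the arrays in most MBs (limma, log2 difference -0.88, adjusted p = 0.03 against CGNP), and on its brightest probe set the difference was -1.74. Ccn2 (Ctgf) was at 6.0 and 5.53 in CGNP and 4.38 and 4.55 in WC, and in MB it ran from 2.44 in MB_1224 to 8.36 in MB_630. With a standard error of 1.24 the log2 difference of -1.01 from CGNP did not pass (adjusted p = 0.675). Ankrd1 was at the lowest value of the arrays, between 2.20 and 2.23, in all 12 samples.

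Axl, a receptor tyrosine kinase and YAP target, was at 4.06 and 3.90 in CGNP, at 7.26 and 7.07 in WC and between 4.11 in MB_1207 and 7.37 in MB_1197. Its mean of 6.13 in MB was higher than in CGNP (limma, log2 difference 2.15, SE 0.754, adjusted p = 0.0488) and did not differ from WC past the test (adjusted p = 0.343). MB_1207 and MB_1224, the tumors lowest in Axl, were also the pair lowest in Wwtr1. Both had the lowest means among MBs for the Bergmann glia and astrocyte list, 5.42 and 6.23, and for the microglial list, 6.72 and 6.50. The same held for the oligodendrocyte list, 3.21 and 3.50, and the Purkinje list, 3.15 and 3.41. The part of these lists was not tested.

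**Figure D4:**
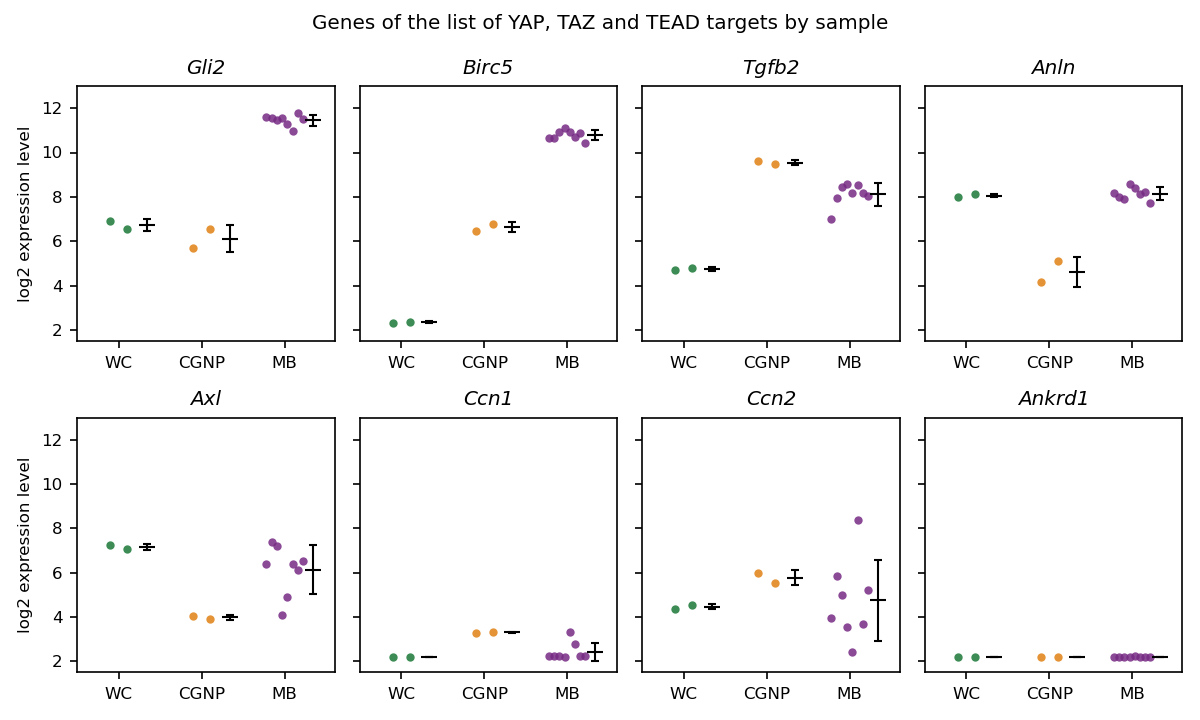
Log2 expression level (vertical axes) of 8 listed YAP, TAZ and TEAD targets in 2 WC, 2 CGNP and 8 MB samples, with mean ± SD beside the points. Gli2 and Birc5 are higher in every MB than in every normal sample, Ankrd1 stays at the lowest value, and Ccn2 spreads from 2.44 to 8.36 among MBs.

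The targets with the greatest rises against CGNP are also known as hedgehog or proliferation genes. Gli2, a hedgehog transcription factor, was at 11.46 in MB, 6.12 in CGNP and 6.73 in WC, a log2 difference of 5.34 from CGNP (SE 0.242; limma, adjusted p = 1.6e-07). Birc5 (Survivin), which acts in mitosis and against apoptosis, was at 10.78 in MB and 6.62 in CGNP (adjusted p = 4.4e-08), and at 2.34 in WC, close to the lowest value of the arrays. Anln, a cytokinesis scaffold, was at 8.15 in MB and 8.06 in WC and lower in CGNP, at 4.61 (adjusted p = 4.1e-06 for MB against CGNP). On its brightest probe set Anln was also higher in MB than in WC, by 1.13 without overlap (adjusted p = 0.0134).

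Other targets fell or followed the normal groups. Tgfb2, a secreted TGF-beta ligand, was at 9.55 in CGNP, 8.11 in MB and 4.74 in WC (limma, adjusted p = 0.0083 for MB against CGNP). Sgk1, a serum-induced kinase, was lower in MB, at 9.40, than in CGNP (10.31) and WC (11.11). Rbms3, an RNA-binding protein, fell from 7.47 in CGNP to 6.41 in MB (adjusted p = 0.0323), and F3, tissue factor, was lower in MB, at 5.94, than in WC, at 8.77 (adjusted p = 0.0148). Dock5, a guanine exchange factor, was at 2.83 in MB, 2.42 in CGNP and 3.26 in WC and was called only in CGNP against WC, as lower (adjusted p = 0.0367), a call lost on its brightest probe set (adjusted p = 0.0534). The list of pericyte, smooth muscle and meningeal fibroblast markers, which stood at 5.76 and 5.86 in CGNP, 3.40 to 6.32 in MB and 4.77 and 4.74 in WC, was highest of all in MB_630, as Ccn2 was. Fat4 and Tgfb2 were higher in CGNP than in all MBs, MB_630 included, where Fat4 was at 3.92 and Tgfb2 at 8.54. The part of these markers' cells in the 3 genes was not tested.

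The patterns most like Yap1 and Tead2 were sought over the 12 samples, as a description with no test. The search covered 9418 genes with a group mean above a log2 level of 5, with predicted gene models left out. The 5 genes most like Yap1 were Asap1 (Pearson r = 0.887), Zhx1 (0.865), Nrp1 (0.840), Adprm (0.837) and Rnf139 (0.820). Asap1, an ARF GTPase activating protein on the target list, was at 10.51 in MB_630 and 9.96 in MB_1224, at 6.75 to 7.52 in the other MBs and at 6.12 to 6.17 in the normal samples. Without MB_630 and MB_1224 the r values of the 5 genes were 0.33 to 0.68, so the likeness rested mainly on these tumors. Asap1, Zhx1 and Rnf139 lie on chromosome 15 in GRCm38.p6, as does Myc, while Yap1 lies on chromosome 9. The study lists gains of Myc in MB_630, MB_1224 and MB_794, and complex rearrangements of chromosome 15 in MB_1224 and MB_794. In MB_794 Asap1 was at 7.26. The part of copy number in these levels was not tested.

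The 5 genes most like Tead2 were Sinhcaf (r = 0.998), Pbk, Cdca3 and Pwwp3b (0.997 each) and Ccna2 (0.996). Ccna2, a cyclin of S phase and G2, was at 3.37 and 3.33 in WC, 7.34 and 7.27 in CGNP and 10.31 to 10.82 in MB. Pbk, a mitotic kinase, was at 2.20 and 2.56 in WC, 7.37 and 7.36 in CGNP and 11.37 to 11.72 in MB. Without both WC samples the r values were 0.98 to 0.99. With 3 groups this far apart, these r values mostly describe the order of the group levels, and nothing about control of Tead2 follows from them.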

How the data were processed

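The deposited values are log2 expression levels, 1 per probe set and array, which the authors made from Affymetrix Mouse 430 v2.0 arrays by GCRMA in the R package affy (versions not given in the sources used here). Centring beyond GCRMA is not stated. Of 45101 probe sets, 34945 paired with 1 gene in the platform annotation, 932 with several and 9160 with none, and 64 array controls were left out. Averaging gave 18193 genes, 290 of them from suffixed probe sets alone. Tests were two-sided, made with limma 3.58.1 under R 4.3.3 (lmFit, then eBayes) on 3 groups. They were adjusted by Benjamini-Hochberg over all genes at a threshold of 0.05. The code was also run on simulated data with normal noise, which checks the code and not how well the tests suit these arrays. No filter on level was set. Values within 0.5 of the lowest, 2.20, were taken as close to the floor, so folds there are bounds. The number of arrays limits precision.

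The named genes are the 9 genes, the core cascade, 4 common targets, Xrcc4, the 3 greatest rises and falls past the test per list and comparison, and the 5 genes most like Yap1 and Tead2. The genes and lists were chosen with earlier results of these data known. Alternatives covered probe sets, normalization, weights, filter, minimum change, the methods' t-test, groups fitted and leaving out each sample.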

Additional observations from a re-analysis of the deposited data

Results flagged for a closer look

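Tead3 was lowest in MB_1207, at a log2 level of 3.35, and its gap to the next MB was 0.533 of the whole range of the 8 MBs, beyond Dixon's limit for 8 samples. Of the 9 genes, 8 were examined in this way among the MBs, and this was the 1 value found. Chance flags about 1 in 20 groups, so a single value over 8 groups is not unusual.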

How the results depend on the processing

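Of 27 log2 differences (9 genes, 3 comparisons), 15 passed the test. Of these, 7 kept their call under every alternative, 8 lost it under at least 1, and none changed sign. The alternatives numbered 23 for the MB comparisons and 22 for CGNP against WC. The count of the 9 genes called in CGNP against WC, 6, was 1 with a minimum log2 change of 0.5, 3 with the 2 groups alone in the fit and 0 with the methods' t-test after adjustment, where 3 passed at an unadjusted p under 0.05. Leaving out each sample gave 3 to 6 calls there, the lowest without WC_2647, 3 to 5 in MB against CGNP and 5 to 6 in MB against WC. The cause was not tested.

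Shifting the arrays to the same median moved all differences of MB from CGNP by -0.117 on the log2 scale, which put Tead3 at -0.0961 and Tead4, at the floor, at -0.117. The same shift gave Tead4 -0.0362 in MB against WC and Yap1 0.0496 in CGNP against WC. Quantile normalization gave Tead3 -0.019 in MB against CGNP and Yap1 0.042 in CGNP against WC. With normal samples pooled, Wwtr1 was at -0.0192 and Tead3 at -0.0316. Leaving out each sample gave Tead3 -0.0093 to 0.0675 in MB against CGNP and -0.189 to 0.021 in MB against WC, and Yap1 -0.104 to 0.0433 in CGNP against WC. None of these differences passed the test.

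Of 24 counts of listed genes, 20 moved by over 1.5 times under some alternative. In MB against CGNP, the cascade list had 4 to 11 genes higher (7 as reported) and 5 to 14 lower (11), STRIPAK 0 to 2 higher (2) and 3 to 6 lower (6), the cofactors 0 to 4 higher (4) and 0 to 1 lower (0), and the targets 5 to 8 higher (7) and 2 to 8 lower (7). In MB against WC these ranges were 9 to 18 (16) and 6 to 9 (8), 2 to 4 (4) and 2 to 5 (4), 1 to 3 (3) and 1 throughout (1), and 7 to 9 (8) and 3 to 7 (6), in the same order. In CGNP against WC they were 4 to 13 (11) and 0 to 5 (2), 0 to 5 (5) and 0 to 4 (1), 0 to 2 (1) and 0 to 2 (2), and 2 to 8 (7) and 1 to 7 (6). With 2 samples in each normal group, which the labels do not say were independent cell preparations, p-values rest mostly on the spread among the MBs. No paired analysis was possible because the groups share no replicate numbers.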
